A study of Dreissena polymorpha with 12 samples.

Results

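The sequences described here form a graded list along the lower Ebro River. Each one had a higher or a lower signal in zebra mussels from Mequinenza and Faio than in those from Flix Reservoir and Flix Factory, and Riba Roja lay between. The list held 73 of the 1226 sequences measured on every array. Of these members, 48 were higher at Mequinenza and Faio and 25 were higher at the Flix sites. The members were chosen by these same values, so the size and direction of the graded difference are a description and carry no test.

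The zebra mussel, Dreissena polymorpha, is an invasive freshwater bivalve that filters its food from the water with its gills, which are ciliated and in steady contact with whatever the water carries. Going downstream, the Ebro passes Mequinenza, then Faio and Riba Roja, and then Flix, a town with a chemical factory on the river. Members are named by the accession numbers that the array carries. None of the accession numbers of the 3541 sequences on the array was found in the RefSeq gene table of this species. The sequences themselves were not compared. No role is therefore given for any member, and marker genes of a tissue could not be checked.

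The series held 12 arrays from 6 sites, with 2 arrays for each of Mequinenza, Faio, Riba Roja, Flix Reservoir, Flix Factory and the Sitjar dam, which lies 200 km from the river. All mussels were taken in March from the populations at these sites, and the labels name no treatment. Each array held the RNA of a pool of 5 individuals. The tissue is not settled, because gills are named on the samples and a portion of each animal's body in the collection protocol. Nothing states how individuals were divided between the pools of a site, so the spread between pools may be partly technical. Every first pool was on slide 1 and every second pool on slide 2, and a site kept its place within the slide, so that an effect of place and one of site cannot be told apart. A pool holds many cell types, so fewer cells of a type and less RNA per cell cannot be told apart either.

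Levels below are log2 signals after quantile normalisation, averaged over the probes of a sequence that stood well above background on all 12 arrays. A difference of 1 on this scale is a doubling. Since a level depends on the probe, levels of single sequences are not compared with each other. Between 22.5% and 34.8% of probes stood well above background on an array, lowest on the second Mequinenza array and highest on the first Sitjar array.

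Of the 1226 measured sequences, 1160 were outside the accession blocks AM229 and AM230 and could enter the list. In 843 of them the difference between the upper sites (Mequinenza and Faio) and the Flix sites had the same sign in both replicates. It reached 0.5 in both replicates in 125 sequences, 77 higher at the upper sites and 48 higher at Flix. Riba Roja lay between the ends in 73 of those. In the other 52 the Riba Roja mean lay beyond the Flix mean in 50 and beyond the upper mean in 2. The split between directions depended on the scaling: scaling to the 75th percentile of the always-detected probes gave 71 higher and 19 lower, and scaling to that of all probes gave 18 higher and 99 lower. All 73 members kept the sign of their difference under each of 4 other scalings or value tables, but not all met the rule there. Between 43 and 64 of them stayed in the list, fewest with scaling to the 75th percentile of all probes.

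The graded difference of the members ranged from 0.54 to 4.93 in size, with a median of 0.89, or 1.86-fold. The median size over all 1226 sequences was 0.22. In 13 of the 73 members all 4 upper arrays exceeded all 4 Flix arrays, against 3.67% of all measured sequences. In 9 members all 4 upper arrays lay below all 4 Flix arrays, against 3.1% of all measured sequences. The rule used this contrast, so nothing is read from these shares. The other members had overlapping arrays at the ends.

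**Figure D1:**
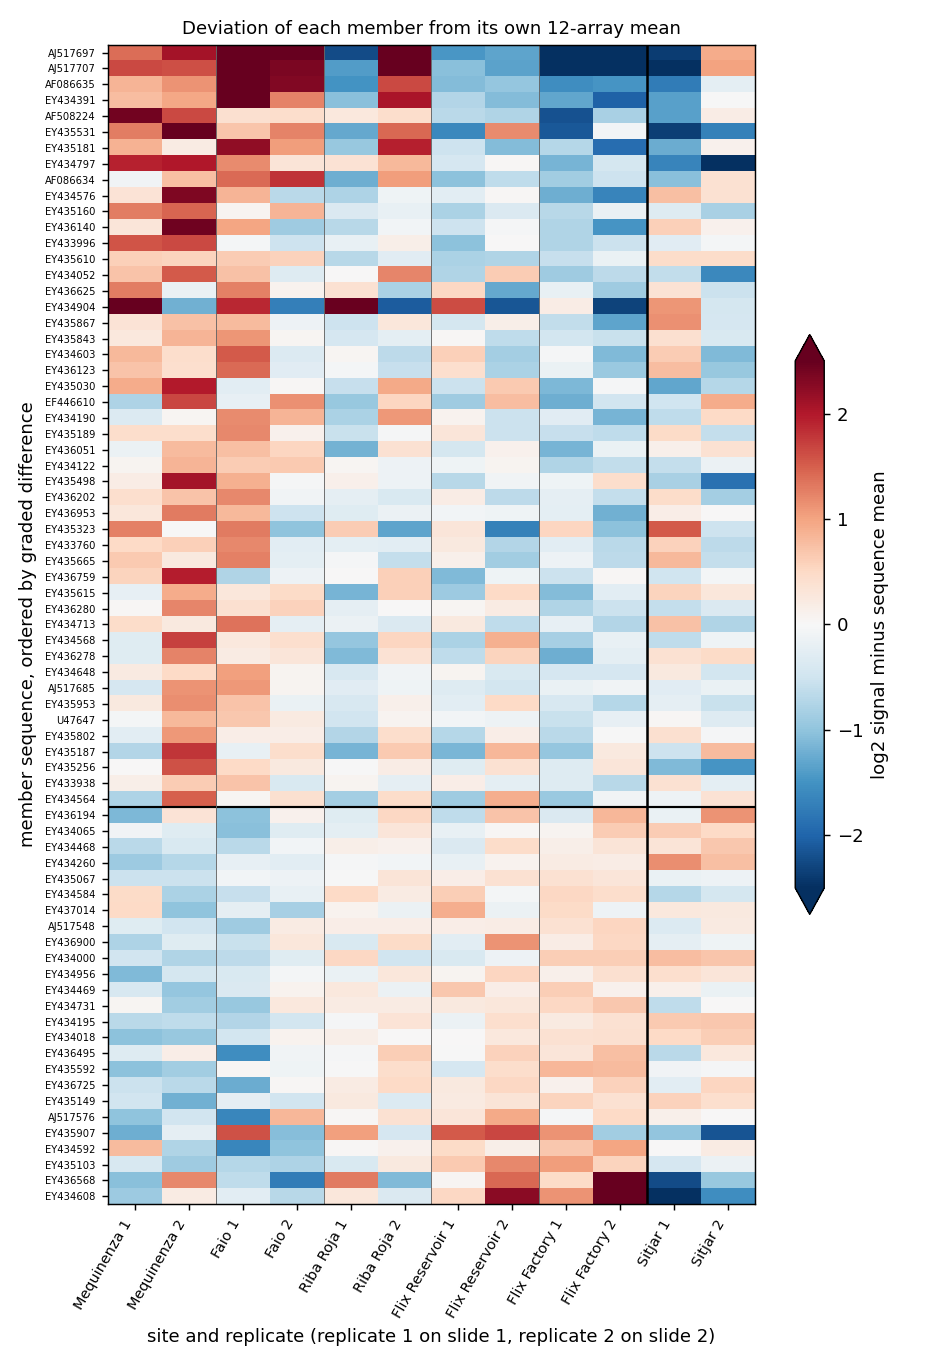
Heat map of the 73 members (one per line, ordered by graded difference) on the 12 arrays (columns, by site and replicate), coloured by log2 signal minus the member's own 12-array mean; colours are capped at 2.5 in either direction. On each array, most of the 48 members above the black line are red at Mequinenza and Faio and blue at the Flix sites. Exceptions are common on Faio 2, where 30 of the 48 are above their own mean. On the Flix Reservoir arrays 15 and 19 of them are. Most of the 25 below the line show the reverse. Above the line, Mequinenza 2 and Faio 1 are redder than their partners.

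The arrays did not contribute equally to the gradient, as the heat map shows. For the 48 members higher at the upper sites, the median deviation from a member's own mean was 1.1 on the second Mequinenza array and 0.83 on the first Faio array. It was 0.38 on the first Mequinenza array and 0.13 on the second Faio array. The lowest medians were those of Flix Factory, at -0.68 and -0.61, while Flix Reservoir stood at -0.43 and -0.18. For the 25 members higher at Flix, the Flix Factory arrays had medians of 0.38 and 0.52 and the Flix Reservoir arrays 0.16 and 0.42. Their lowest arrays were the Mequinenza pair, at -0.55 and -0.64, and the first Faio array, at -0.63. The second Faio array stood close to the middle, at -0.12. Without the second Mequinenza array the rule kept 44 sequences, 40 of them among the 73. That array had the lowest share of probes above background, and some probes of members read low on it and were left out. A probe of AJ517685 read 5.15 there and a probe of EY434568 read 4.66. Their differences were -1.56 and -1.35, opposite in sign to their members. A left-out probe of AJ517697 also read low there, at 5.02, but its difference of 2.91 had the sign of its member.

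The largest gradient was that of AJ517697, with a difference of 4.93, or 30.4-fold. Its levels were 11.54 and 12.23 at Mequinenza, 14.19 and 12.91 at Faio, 8.70 and 8.84 at Flix Reservoir, and 7.0 and 6.62 at Flix Factory. The ends did not overlap, and the Faio pair was above the Mequinenza pair. At Riba Roja the pools read 7.92 and 12.99, a mean of 10.46 ± 3.58 (SD, n = 2) that neither pool was near. The Sitjar pools also lay far apart, at 7.78 and 11.07.

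AJ517707 had nearly the same profile, with a difference of 4.60, or 24.3-fold, over 3 probes. Its levels were 11.62 and 11.57 at Mequinenza, 13.37 and 12.32 at Faio, 8.92 and 8.62 at Flix Reservoir, and 6.82 and 6.09 at Flix Factory. Its Riba Roja pools read 8.56 and 13.27, below the Flix Reservoir pair in the first case and beside the Faio pair in the second. The Sitjar pools, at 7.40 and 10.96, were split the same way round.

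AF086635 was 7.99-fold higher at the upper sites, and its 5 probes gave differences of 2.76 to 3.20. It read 9.47 and 9.73 at Mequinenza, 11.25 and 10.92 at Faio, 7.53 and 7.65 at Flix Reservoir, and 7.06 and 7.13 at Flix Factory. Pools of the same site agreed closely at these 4 sites, with SDs of 0.18, 0.23, 0.08 and 0.05. The pools lay far apart at Riba Roja, with 7.12 in the first and 10.27 in the second, and at Sitjar, with 6.86 and 8.37. The neighbouring accession AF086634, on 4 probes, differed by 1.74, with probes from 1.66 to 1.77. It read 8.90 and 11.18 at Riba Roja, with 10.04 to 11.94 at the upper sites and 9.10 to 9.62 at the Flix sites.

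EY434391 and EY435181 completed a group of 6 members with large gradients and distant Riba Roja pools. EY434391 differed by 2.66, with Riba Roja pools at 8.51 and 11.59, and EY435181 by 2.14, with pools at 9.43 and 12.31. For both, the second pool was above 3 of the 4 upper arrays. EY434391 rests on 1 of its 5 probes: the other 4, which stood above background on 4 to 11 arrays, had differences of -0.78 to -1.53, opposite in sign. EY435181 also rests on 1 of its probes, and another, above background on 8 arrays, had a difference of -0.48, again opposite in sign.

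**Figure D2:**
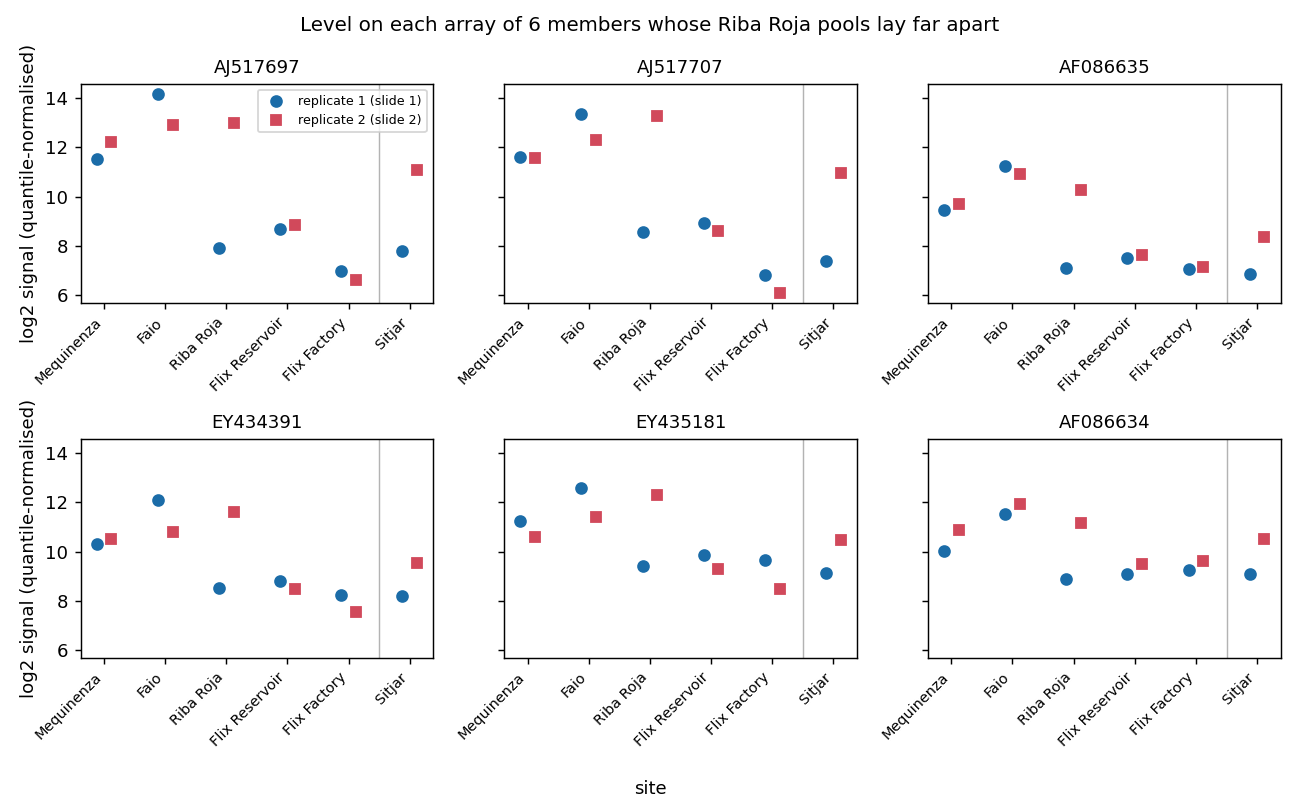
Level (quantile-normalised log2 signal) of 6 members on each of the 12 arrays by site, with circles for replicate 1 and squares for replicate 2. At Riba Roja the circle lies near the Flix arrays and the square near the Mequinenza and Faio arrays in all 6 panels, from 7.92 to 12.99 for AJ517697 and from 8.90 to 11.18 for AF086634.

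AF508224 followed another course, highest at Mequinenza. It read 15.87 and 15.11 there, 13.85 and 13.89 at Faio, and 13.71 and 13.90 at Riba Roja. The Flix Reservoir pools read 12.78 and 12.70, and the Flix Factory pools 11.28 and 12.64. The site means fell at each step downstream, from 15.49 ± 0.54 to 11.96 ± 0.97 (SD, n = 2 each), although Faio and Riba Roja differed by less than the spread of the Riba Roja pools. Its 5 probes did not behave alike: 4 had differences of 2.40 to 3.89, while the remaining probe had -0.18, opposite in sign to its sequence. The step to Flix Factory came mainly from 2 of the probes. These read 7.38 and 8.76 on the first Flix Factory array, against 11.25 and 11.88 on the second. The others changed little between the Flix sites. For instance, 1 of them read 11.42 and 11.07 at Flix Reservoir and 11.27 and 10.98 at Flix Factory.

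EY435531, on 3 probes, was graded by 2.27 but also differed between the slides. Its slide 1 pools read 9.83 at Mequinenza, 9.22 at Faio and 7.27 at Riba Roja, then 6.94 at Flix Reservoir and 6.43 at Flix Factory. Its slide 2 pools read 11.82, 9.78, 9.98, 9.72 and 8.47 in the same order. Every Ebro site was higher on slide 2, least so at Faio. The order of the sites was the same on both slides except that Faio and Riba Roja changed places.

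EY434797 was graded by 1.85 on 1 probe. Its levels fell from 10.17 and 10.26 at Mequinenza through 9.43 and 8.58 at Faio, 8.61 and 9.06 at Riba Roja and 7.84 and 8.28 at Flix Reservoir to 7.10 and 7.82 at Flix Factory. The lower Faio pool lay just below both Riba Roja pools, and the ranges of the Flix sites nearly met. EY434576 and EY436140 had a single high array as their main feature. EY434576, with 4 probes and a difference of 1.48, read 12.16 in the second Mequinenza pool and 10.15 in the first, and 10.66 and 9.14 at Faio. EY436140 read 12.10 and 9.95 at Mequinenza, and 10.64 and 8.78 at Faio. In both, the second Faio array lay below both Flix Reservoir arrays.

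The 25 members higher at Flix had a median size of 0.80 and reached 4.07-fold, and the 48 others had a median of 0.91. That order was not separated from the scaling. With the 75th percentile of all probes the median difference of all sequences was -0.31, toward Flix, against 0.007 on the main scale. EY434608 had the largest difference among the 25. Its levels were 10.16 and 11.25 at Mequinenza, 10.79 and 10.36 at Faio, and 11.35 and 10.70 at Riba Roja. They were 11.57 and 13.30 at Flix Reservoir, and 12.18 and 13.61 at Flix Factory. All 4 Flix arrays were above all 4 upper arrays. Sitjar, at 7.90 and 9.51, was below every Ebro array. The value rests on 1 probe, and the other 4 probes of EY434608 stood above background on at most 1 array.

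EY436568 came next, with a difference of -1.85 on 1 probe, and its pools were widely spread. It read 10.03 and 12.30 at Mequinenza, 10.45 and 9.34 at Faio, and 12.39 and 9.99 at Riba Roja. The Flix Reservoir pools read 11.13 and 12.51 and the Flix Factory pools 11.57 and 14.32. The second Mequinenza pool lay among the Flix pools, so the ends overlapped.

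EY435103, on 2 probes, was 2.94-fold higher at Flix, and its ends did not overlap. Mequinenza stood at 7.42 ± 0.35, Faio at 7.31 ± 0.03 and Riba Roja at 7.99 ± 0.45 (SD, n = 2 each). Flix Reservoir stood at 8.98 ± 0.39 and Flix Factory at 8.86 ± 0.35. The Riba Roja pools, at 7.67 and 8.30, lay above 7.66, the highest upper array, and below 8.61, the lowest Flix array. EY434956 was the only member of this direction with as many as 4 probes in use. It read 9.5 and 10.17 at Mequinenza and 10.22 and 10.55 at Faio, against 10.66 to 11.15 on the Flix arrays. It changed by -0.77, and the probes ranged from -1.09 to -0.55.

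The other members among the 10 largest of this direction were EY434592, EY435907, AJ517576, EY435149, EY436725, EY435592 and EY436495. Their differences ran from -1.22 in EY434592 to -0.85 in EY436495. EY435907 was the least regular of them, with 13.94 in the first Faio pool, above 3 of the 4 Flix arrays, and 11.48 in the second Flix Factory pool. AJ517576 had a second Faio pool of 9.09, above 3 of its 4 Flix arrays. EY435067, on 1 probe, read 17.55 and 17.56 at Mequinenza, 18.03 and 17.97 at Faio, and 18.26 to 18.47 at the Flix sites. Its difference was -0.62, and its ends did not overlap.

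Some members met the size condition narrowly. EY434065, with replicate differences of -0.50 and -0.64, EY433938, with 0.50 and 0.59, and AJ517548, with -0.87 and -0.51, were just inside. EY433795, with 0.495 and 0.76, EY436396, with 0.49 and 0.57, and EY436515, with 0.49 and 0.68, fell just short in 1 replicate.

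The place of Riba Roja was expressed as a position from 0 at the Flix mean to 1 at the upper mean. The rule fixes that the mean of both pools lies between these ends. Within that span the median position was 0.22, and 59 of the 73 members were nearer to the Flix end. Over all 1226 measured sequences the median position was 0.10, so a place near Flix was not particular to the members. In the members, the Riba Roja pools taken singly did not share a place. On slide 1 the Riba Roja pool was between the ends of its own slide in 38 members, beyond the Flix end in 32 and beyond the upper end in 3. On slide 2 it was between the ends in 62, beyond the Flix end in 3 and beyond the upper end in 8. Riba Roja lay between the ends on each slide alone in 31 members, 14 of the 48 higher at the upper sites and 17 of the 25 higher at Flix.

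In 54 of the 73 members the second Riba Roja pool had a higher position on this scale than the first. Over all measured sequences the median position was -0.03 for the first pool and 0.16 for the second. In 14 members the pools stood at opposite ends, with positions under 0.25 and over 0.75. These were the 6 sequences plotted by array, together with EY434904, EY435867, EY435030, EY434190, EY435615, EY437014, EY434000 and EY436568. The pools differed by 33.5-fold in AJ517697, by 26.3-fold in AJ517707 and by 1.17-fold in EY437014. EY434904, in which the pools differed 23.4-fold, ran the other way from the first 6: its first pool read 11.18 and its second 6.63. At every site EY434904 was higher on slide 1, for instance at 10.33 against 6.57 at Flix Reservoir. The median size of the pool difference at Riba Roja was 0.53 in the members and 0.38 over all measured sequences. A wider spread was not particular to Riba Roja. At every site the median SD between pools was larger in the members than over all measured sequences. It was 0.54 against 0.28 at Faio, and 0.38 against 0.27 at Riba Roja. The members also had a lower median level, 10.10 against 11.62 over all measured sequences. Whether the wider spread went with the lower level was not tested.

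**Figure D3:**
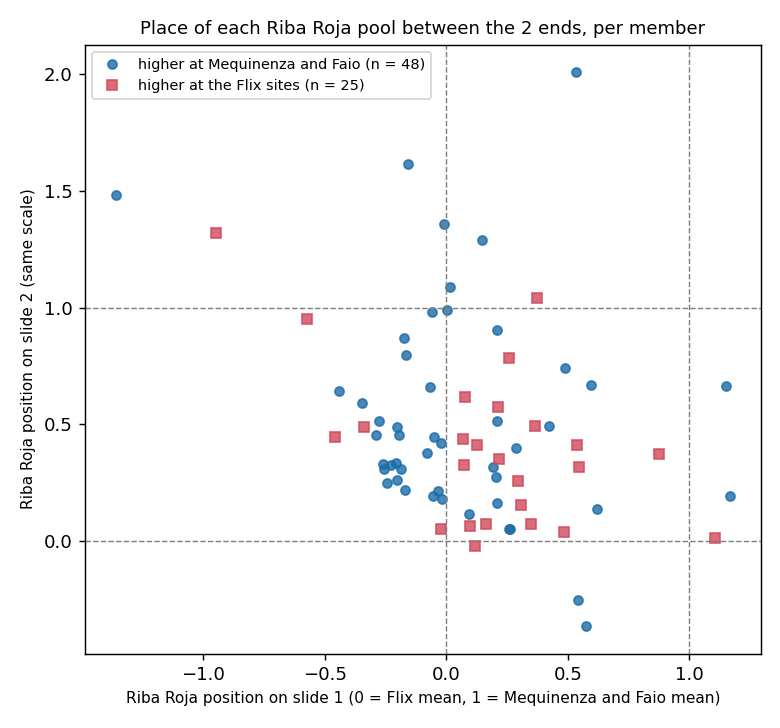
Position of the Riba Roja pool between the Flix mean (0) and the Mequinenza and Faio mean (1) of the same slide, slide 1 on the horizontal and slide 2 on the vertical axis, one point per member (circles, higher at the upper sites, n = 48; squares, higher at Flix, n = 25). The central box between the dashed lines holds the 31 members between the ends on each slide; most other points lie to the left of it, where slide 1 places Riba Roja beyond Flix.

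A full order of the 5 site means, from Mequinenza through Faio, Riba Roja and Flix Reservoir to Flix Factory, was present in 11 of the 73 members, 6 of the 48 and 5 of the 25. The rule used the mean of the sites at either end and not their difference, so the difference of each sequence could be tested. At the lower end, Flix Factory lay farther from the upper sites than Flix Reservoir in 58 of 73 members (79.5%), against 59.2% of the 1160 sequences that could enter the list. The direction of a member came from the same arrays, and the 1160 sequences had not passed the size condition, so nothing is read from that gap. The count was 57 on slide 1, 52 on slide 2 and 46 on both slides. By direction it was 41 of 48 and 17 of 25, and other scalings gave totals of 56 to 59. The median size of this step, signed along the gradient, was 0.29, with a range from -1.48 to 2.31.

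No single member passed the test of Flix Factory against Flix Reservoir. With limma's adjusted p, 0 of the 1226 measured sequences (0%) and 0 members were past the threshold of 0.05. At an unadjusted p under 0.05 there were 19 sequences, 3 of them members. With the slide as a block there were 0 and 0 again, and 55 and 5 unadjusted. The smallest p among members was that of EY435592, which was 1.74-fold higher at Flix Factory (log2 difference 0.80, SE 0.29, limma adjusted p = 1.000). It read 9.30 and 9.27 at Flix Factory and 8.06 and 8.90 at Flix Reservoir. EY434000 followed at 0.87 and EY434122 at -0.66. The largest step was in AJ517707, from 8.77 ± 0.21 at Flix Reservoir to 6.46 ± 0.51 at Flix Factory (SD, n = 2 each). These misses do not show that the sites were alike. Leaving out any single array gave at most 1 called sequence, or 4 with the block, and 0 members.

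At the upper end, Mequinenza lay farther from the Flix sites than Faio in 42 of 73 members (57.5%), near the 52.5% of the sequences that could enter the list. This count depended on the slide: it was 22 on slide 1, 57 on slide 2 and 17 on both. Other scalings gave 42 to 51 members. The median step was 0.08, with a range from -1.67 to 1.90. The largest reverse step was that of AJ517697, with Faio above Mequinenza.

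In the test of Mequinenza against Faio, limma called 0 of 1226 sequences (0%) and 0 members, with 74 and 11 at an unadjusted p under 0.05. With the slide as a block it called 1 sequence (0.0816%), which was not a member, with 198 and 16 unadjusted. EY433996 had the smallest p among members, 3.74-fold higher at Mequinenza (log2 difference 1.90, SE 0.35, limma adjusted p = 0.196, and 0.0536 with the block). It read 9.03 and 9.10 at Mequinenza and 7.40 and 6.93 at Faio, with 7.26 and 7.60 at Riba Roja. All arrays outside Mequinenza were therefore well below the Mequinenza pair. EY436759, on 4 probes, was 3.26-fold higher at Mequinenza, at 9.60 and 11.01 against 8.29 and 8.90 at Faio (limma adjusted p = 0.589, and 0.0536 with the block). Both passed with the block after normexp correction (limma adjusted p = 0.0433 for each) and in the authors' deposited values (0.0485 by limma for each). EY434018 differed by -0.80, lower at Mequinenza (limma adjusted p = 0.493, and 0.0978 with the block). Leaving out the first Mequinenza array gave 2 called sequences, or 60 with the block, of which 1 was a member. A site left with 1 array, here and at Sitjar, is assumed to vary like the other sites. With the block, leaving out the second Mequinenza array gave 4 and leaving out either Flix Reservoir array gave 2, with 1 member in each case.

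**Figure D4:**
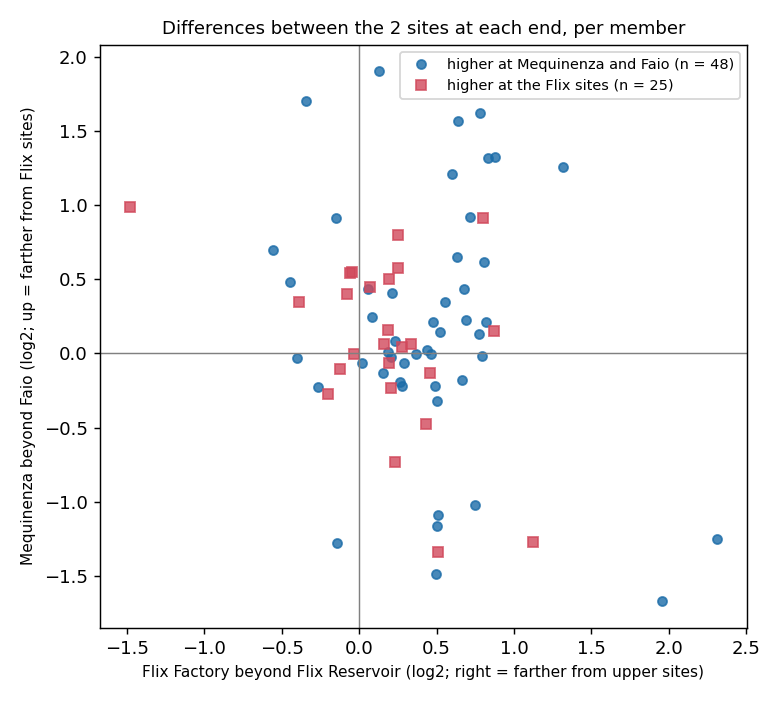
Difference between the sites at each end for the 73 members: Flix Factory beyond Flix Reservoir on the horizontal axis and Mequinenza beyond Faio on the vertical axis, both in log2 units and signed along the gradient. Of the points, 58 lie to the right of the vertical line and 42 above the horizontal line; the pair at the lower right is AJ517697 and AJ517707.

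Sitjar, outside the river, was not used by the rule except in the detection filter and the normalisation. On the scale from the Flix end to the upper end it lay between the ends in 46 of the 73 members, beyond the Flix end in 20 and beyond the upper end in 7. It was nearer to the Flix end in 45. Its median position was 0.33 in the members higher at the upper sites and 0.38 in those higher at Flix, against 0.26 over all measured sequences. The members were chosen for ends far apart, so nothing is read from these places. Sitjar was below the Ebro mean in 31 of the 48 and above it in 13 of the 25. Over all measured sequences it was below in 656 of 1226 and above in 570. The median of this difference over all sequences ran from -0.09 to 0.02 with the scaling.

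Against the mean of the 5 Ebro sites, limma called 7 of the 1226 sequences (0.571%), and 2 of these were members. At an unadjusted p under 0.05 there were 174 sequences and 17 members. With the slide as a block the call reached 165 sequences (13.5%) and 12 members (16.4%), with 367 and 23 unadjusted. The 7 sequences called without the block were 2 higher and 5 lower at Sitjar. Scaling to the 75th percentile of always-detected probes gave 2 and 13, and normexp correction gave 2 and 1. With the block the split was 70 higher and 95 lower, which became 42 and 141, or 52 and 118, under the 75th percentile scalings. The share of members called with the block was close to the background.

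EY434797 was lower at Sitjar than on any Ebro array. Its Sitjar pools read 6.60 and 5.27, while the Ebro arrays ran from 7.10 through a median of 8.59 to 10.26. The difference was -2.78, or 6.86-fold (SE 0.38, limma adjusted p = 0.0283, and 0.00508 with the block), with -2.03 on slide 1 and -3.52 on slide 2. Since Flix Factory was its lowest Ebro site, Sitjar lay beyond the Flix end.

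EY434260 was higher at Sitjar than on any Ebro array. Its Sitjar pools read 10.52 and 10.13, and the Ebro arrays 8.46 to 9.57 with a median of 9.24. It was 2.22-fold higher (log2 difference 1.15, SE 0.16, limma adjusted p = 0.0283, and 0.00507 with the block). EY434260 read 8.46 and 8.65 at Mequinenza and 9.57 and 9.56 at Flix Factory, so Sitjar again lay beyond the Flix end.

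Both calls were sensitive to single arrays. EY434797 kept its call in 5 of the 12 fits that each left out 1 array (limma adjusted p from 0.0342 to 0.230), and EY434260 in 2 of the 12 (0.0406 to 0.265). With the block they kept it in 11 and 10 of 12. EY434797 lost it there without the second Sitjar array, and EY434260 without either Sitjar array. The number of members called also depended on the array left out, with and without the block, as did the number over all sequences. Without the block, most of these fits called fewer members than the full fit. Each of them leaves a site with 1 array, so no count of members is given for them here.

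The other 10 members called with the block went in both directions. EY434608 was 7.08-fold lower at Sitjar (limma adjusted p = 0.0103 with the block, and 0.0738 without it), although it was among the members higher at Flix. EY435531 was 5.39-fold lower (0.0123 with limma and the block, and 0.298 without it), at 6.18 and 6.85 against Ebro arrays of 6.43 to 11.82. EY435256 was 2.92-fold lower, at 10.15 and 9.77 against Ebro arrays of 10.92 to 12.83. EY435030 was 2.31-fold lower, at 7.76 and 8.34. The higher ones were EY434000 (1.84-fold), EY434195 (1.73-fold), EY434018 (1.59-fold), EY435149 (1.52-fold), EY436194 (1.49-fold) and EY435610 (1.47-fold). Of these, 5 belonged to the members higher at Flix, and EY435610 to those higher at the upper sites. Several of these calls depended on single arrays or on the scaling. With the block, EY435149 kept its call in 2 of the 12 fits that each left out 1 array, EY435610 and EY436194 in 3, EY434000 in 4 and EY434018 in 9. The other 5 kept it in 10 and lost it without either Sitjar array. Under the 4 other scalings or value tables with the block, EY435149 and EY435610 lost the call in 3, EY436194 in 2 and EY434195 in 1. For EY434195 the Sitjar pools, 8.67 and 8.70, were above all Ebro arrays, which reached 8.44. For EY436194, at 8.69 and 9.99, the first pool lay inside the Ebro range and the call appeared only with the block.

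**Figure D5:**
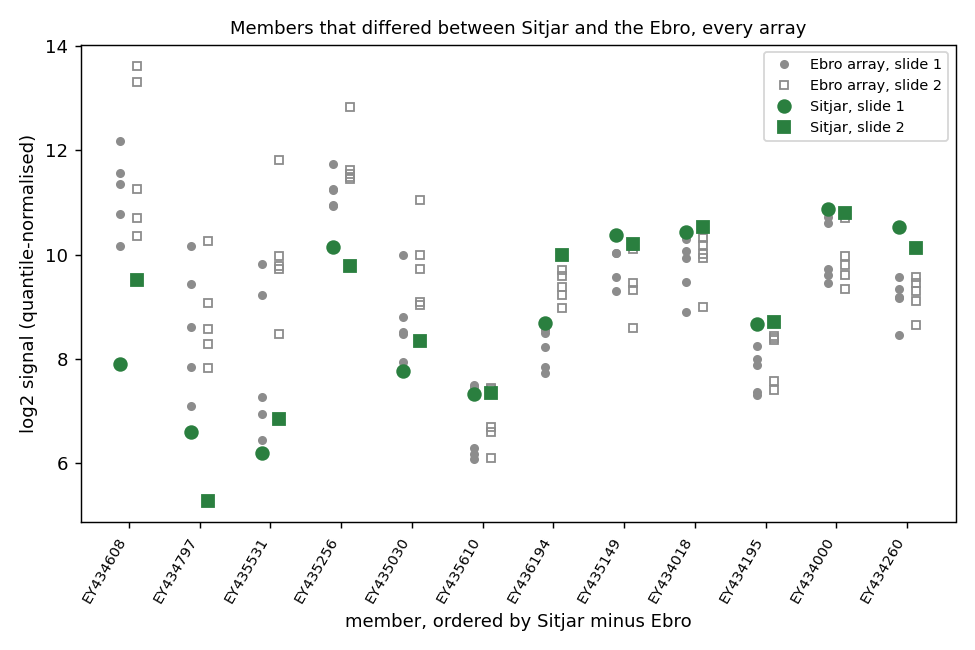
Level (quantile-normalised log2 signal) of the 12 members called between Sitjar and the Ebro with the slide as a block, ordered from lower to higher at Sitjar; grey symbols are the 10 Ebro arrays and green symbols the Sitjar arrays (circles, slide 1; squares, slide 2). EY434797, EY434608 and EY435256 have both green symbols below every grey one, and EY434260, EY434195, EY434018 and EY434000 have both above.

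The second pools, all on slide 2, differed widely from the first pools, all on slide 1. Slide, scan and anything else shared by pools of the same number cannot be told apart. With site means in the fit, limma called 560 of 1226 sequences (45.7%) between slide 2 and slide 1, and 26 members (35.6%). Over all sequences 341 were higher and 219 lower on slide 2, a split that became 205 and 325 with scaling to the 75th percentile of always-detected probes and 495 and 178 with that of all probes. Among the called members higher at the upper sites, 11 were higher and 8 lower on slide 2, and among those higher at Flix 6 were higher and 1 lower. EY435323 was 3.61-fold lower on slide 2 (limma adjusted p = 6.29e-05), EY434904 9.79-fold lower (2.69e-04 by limma) and EY436194 higher by 1.21 (1.07e-04 by limma). The others among the 10 with the smallest p were EY436625 (-1.20) and EY434603 (-1.20), which were lower, and EF446610 (1.52), EY435187 (1.58), EY435030 (0.95), EY435531 (1.79) and EY436759 (0.77), which were higher. The rule took the difference between the ends within each slide and asked for the same sign on both. Whether slide effects that differed between sites placed sequences in the list was not tested.

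Of the 73 members, 35 (47.9%) rested on 1 probe, against 36.6% of the sequences that could enter. Where a member had 2 or more probes in use, they had the same direction in 37 of 38 members, AF508224 being the exception. The rule selected on the mean of these same probes, so their direction is largely fixed by the choice and nothing is read from it. The probes left out were not used by the rule, and 83 of them stood above background on no array. Of 145 such probes, 87 had the sign of their member, and 4 had no difference because an outlier spot was removed on 1 array. Those 4 were among the 31 that stood above background on 6 to 12 arrays, of which 17 had the sign of their member.

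By accession block, 63 of the 1068 sequences from EY433 to EY437 were members (5.9%), as were 5 of 64 from AJ517 (7.81%), against 6.29% of all that could enter. The small blocks gave AF086634 and AF086635 of 2 in AF086, AF508224 of 2 in AF508, EF446610 of 2 in EF446, and U47647 as the only one of its block.

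Some members had almost the same profile over the 12 arrays. Of the 2628 pairs of members, 14 had a correlation of at least 0.97, which linked 15 members in 4 sets. The points share slides, sites and normalisation, so these are descriptions. AJ517697, AJ517707, EY434391 and EY435181 formed the set with distant Riba Roja pools, with r from 0.974 to 0.986 for the linked pairs. EY433760, EY434603, EY434713, EY435665, EY436123 and EY436202 formed the second set, with r from 0.973 to 0.993 for the linked pairs. Its least alike pair had an r of 0.932. Its mean level was highest on the first Faio array, at 14.08, against 12.51 on the second. At Sitjar it stood at 13.41 and 11.93, so that its first Sitjar array was above both Mequinenza arrays. EY434648, EY435189 and EY435843 (r from 0.972 to 0.977 for the linked pairs, lowest 0.939) also had their highest mean on the first Faio array, at 14.92. EY434576 and EY436140 were linked at 0.979, and both had their highest level on the second Mequinenza array. Whether members of a set stem from the same transcript was not tested.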

How the data were processed

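The members and lists were chosen with earlier results of these data known. RNA of 12 pools was labelled with Cy3 and hybridised to one-colour Agilent arrays, per the labels' protocols. Spot intensity (processed signal, and median signal and background) was made with Agilent Feature Extraction 10.5.1.1, per the file headers. Version 9.5 is given in the submitters' processing notes. The processed signal is a linear, background-subtracted intensity, and the flags for background, saturation and outliers (0 or 1) were deposited with it. The authors' deposited table holds log2 values. It correlated with the arrays at 0.985 to 0.9999, its column medians ran from 2.93 to 3.26, and its centring is not known here, so it served as an alternative.

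Of 15744 spots, 536 controls and the outlier-flagged spots were left out, and 0 were saturated. Log2 signals of 13654 probes were averaged over copies and quantile-normalised over all of them, the scale of the rule. The mean over the probes of a sequence well above background on all 12 arrays (2806 probes; for probes with copies, more than 0.5 of them) gave 1226 sequences. The rule asked for a difference of 0.5 or more, of one sign, in each replicate. Limma 3.58.1 (R 4.3.3) fitted 6 site means to all arrays, with Benjamini-Hochberg adjustment over 1226 sequences and a threshold of 0.05. Every adjusted p is limma's. The number of arrays limits the precision.

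Same-numbered arrays deviated together (r from 0.49 to 0.77 over 15 pairs of sites), and each number is a slide with its own scan, so the numbers were taken to pair the samples, and values with the slide as a block stand beside the results they change. Alternatives were scaling, background correction, filters, outliers, thresholds, averaging, array weights, the samples in the fit and leaving out each array. The scripts were tested on simulated data.

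Sequences named are the 10 largest in each direction, members with 4 or more probes in use, those called in each test (up to 10, or the 3 with the smallest p) and the 3 nearest the size threshold on either side. Others, such as EY436140, EY435067 and those listed for their Riba Roja pools or shared profiles, were chosen after their values were seen.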

Additional observations from a re-analysis of the deposited data

How the results depend on the processing

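The main list had 73 members. With scaling to the 75th percentile of all probes the rule kept 117 sequences, 43 of them among the 73. With probes above background at 1 site or more it kept 191 (52 higher and 139 lower), 60 of them among the 73. A size of 0.3 gave 144 and a size of 1 gave 18. There were 125 without the Riba Roja condition and 31 with it in each replicate. The size taken on the mean, an alternative chosen after seeing the data, gave 128. Leaving out 1 array gave 44 to 103. The 7 sequences called at Sitjar became 15 and 4 with the 75th percentile over always-detected and over all probes, 3 with normexp, 14 with outlier spots kept, 13 with limma-trend and 165 with the replicate block. The block with the other scalings, added after seeing the data, gave 183, 170, 144 and 162. Leaving out 1 array gave 0 to 20, or 0 to 250 with the block. For Mequinenza against Faio, 0 became 3 with probes above background at 1 site or more, 1 with the replicate block, and, with the block, 7 with normexp and 5 with the authors' values (2 members in each case). Leaving out 1 array gave 0 to 2, or 0 to 60 with the block. For Flix Factory against Flix Reservoir it gave 0 to 1, or 0 to 4 with the block, and no other alternative made a call. The count between slides was 452 to 579 over the left-out arrays and stayed within 1.5 times of 560 under all alternatives run, although with probes above background at 1 site or more its split became 250 higher and 333 lower. The difference of EY434391 turned to -0.11 with probes above background at 1 site or more, a filter that adds its other probes. The cause of the other changes was not tested. Scaling to the 75th percentile of all probes put the median graded difference of all sequences at -0.31, so its members are relative to that shift. EY434797 lost its call at Sitjar with normexp (-1.80, limma adjusted p = 0.0527), and EY434260 with both 75th percentile scalings (0.143 and 0.0724) and with probes above background at 1 site or more (0.0576). Sequences under background on any array had no value, so dim sequences present at 1 end alone were not measured.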
